A study of Drosophila melanogaster with 24 samples.

Results

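A set of 238 transcripts was at least 2 log2 units (4-fold) higher in heads than in whole bodies of w1118 flies, in females and in males alike. They were chosen from 13873 transcripts with a value on all 24 arrays, by the difference of the means of 3 arrays per group. The values come from a one-colour (Cy3) NimbleGen array of adult Drosophila melanogaster and are log2 levels after RMA. RMA corrects the background, makes the arrays' distributions alike and summarises the probes of a transcript. The array carries 8 probes for each transcript, per the labels. The study concerns Lobe-less (lol), which its title describes as a long noncoding RNA acting in the development of the mushroom body, a brain centre for olfactory learning. Flies of the lol mutant strain were compared with w1118, the control strain. They were kept at 23 °C and collected on day 2 as adults, males and females apart, and each RNA came from 100 heads or 100 whole bodies. The 8 groups of 3 arrays were heads of lol females, w1118 females, lol males and w1118 males, and whole bodies of the same 4 kinds of flies. The labels describe the replicates of a group as separate cultures. They give neither the lesion nor the genetic background of the lol strain, so its differences from w1118 are differences between 2 strains.

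The fly head holds the compound eyes, the antennae and mouthparts, the brain with the mushroom bodies, glia, muscle and a fat body of its own. Transcripts made mainly by these organs, such as those of light detection, smell and synaptic transmission, are known to be more abundant in head RNA than in RNA of the animal as a whole. A whole body still contains its head, so a whole-body sample measures head transcripts diluted by the RNA of thorax and abdomen. In such bulk samples, fewer cells of a type and less RNA per cell cannot be told apart. None of the 238 could be given a gene name. The table carries FlyBase transcript IDs without gene names, and of the 43 measured IDs that the Release 6 gene table lists, 0 were among the 238. Marker genes of eye, nerve, glia or other tissues could not be looked up for the same reason, and the tissue labels were not checked against them. Transcripts are therefore given by ID, at most 2 in each direction of a comparison, and their levels and behaviour are described instead.

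The replicate arrays of a group correlated at 0.91 to 0.99 across transcripts, and 0 pairs of arrays had identical values. A group of 4 head arrays stood apart from the other 8 in transcripts of the body. The median of 214 transcripts that were at least 2 log2 lower in heads than in bodies of w1118 females, and within 0.5 log2 between the sexes in w1118 bodies, was 10.37 on lol female head replicate 1 and 10.58 on lol male head replicate 1. It was 10.62 and 10.93 on w1118 male head replicates 1 and 2. On the other 8 head arrays this median lay between 8.68 and 9.11, and on the body arrays it lay between 13.06 and 13.85. Values without these 4 arrays are given beside some of the results that rest on them, not all, and their part in the results was not tested further. On the same 4 arrays the head-enriched set had medians of 12.85, 12.60, 12.57 and 12.53, against 12.52 to 12.88 on the other 8 head arrays, so its level there lay close to that on the others.

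On the arrays that chose them, the 238 had a median difference between heads and bodies of 2.22 log2 in w1118 females and 2.56 log2 in w1118 males. The difference was at most 3.03 log2 in these females and 3.46 log2 in these males, and it reached 2.5 log2 in 29 transcripts in females and 139 in males. Just inside the threshold, the smaller of the female and male differences was 2.0022, 2.0023 and 2.0039 log2 in 3 transcripts. Just outside it was 1.9994, 1.9983 and 1.9975 log2. Female flies set the limit for most of the set: 280 transcripts reached 2 log2 in w1118 females and 493 did so in w1118 males. A further 42 passed in females only and 255 in males only. These values describe the choice and were not tested.

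In heads, most of the set lay above the median of all transcripts, and in male bodies 143 (lol) and 146 (w1118) of the 238 lay in the lowest 25% of all transcripts. The median over the 238 was 12.70 in lol female heads, 12.67 in w1118 female heads, 12.70 in lol male heads and 12.62 in w1118 male heads, where the median of all transcripts was 12.12 to 12.17. Single transcripts ranged from 10.09 to 14.86 in lol female heads and from 9.50 to 14.94 in lol male heads, and 0 of them had a mean over 15 in any group (the highest value of the table is 15.9201). In whole bodies the medians were 10.72 in lol females, 10.44 in w1118 females, 9.91 in lol males and 10.02 in w1118 males. The lowest 25% of all transcripts held 44 of the 238 in lol female bodies and 69 in w1118 female bodies. Its upper limit was not the same in all groups. It was 9.78 in lol and 9.87 in w1118 female bodies, against 10.25 and 10.29 in male bodies. The plot of levels on each array shows the same steps: heads of all kinds sit together, female bodies lie in between and male bodies are lowest.

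**Figure D1:**
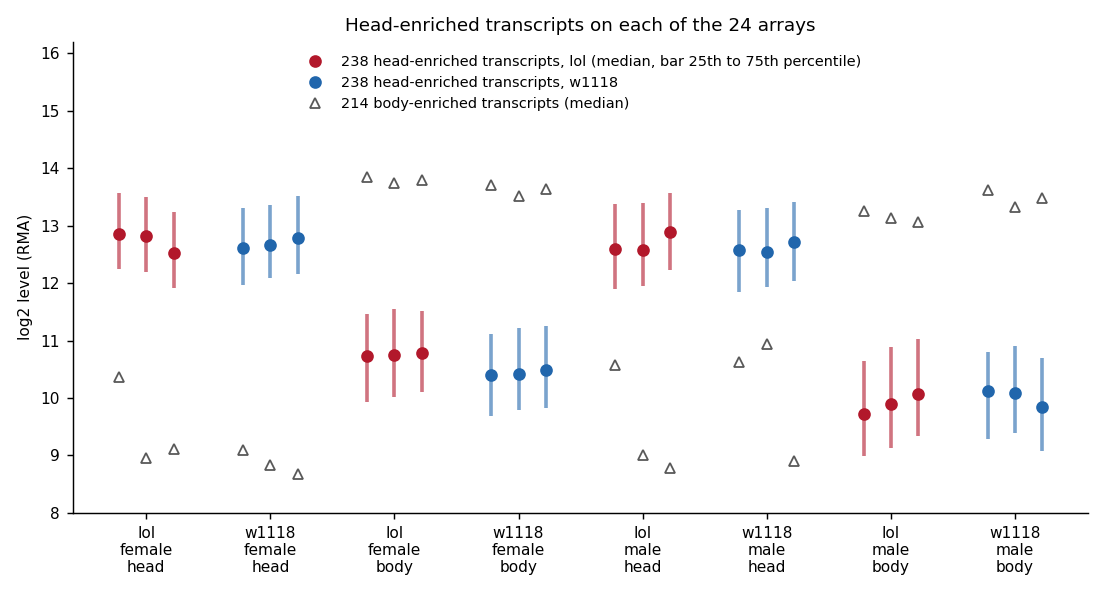
Median log2 level of the 238 head-enriched transcripts on each of the 24 arrays (filled points, lol red and w1118 blue, with bars from the 25th to the 75th percentile over transcripts) and of the 214 body-enriched transcripts (open triangles), by group. The filled points lie between 12.52 and 12.88 on head arrays and between 9.71 and 10.79 on body arrays. The triangles are raised on lol female head 1, lol male head 1 and w1118 male heads 1 and 2.

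Heads and bodies of lol flies, whose arrays the choice did not use, showed a head excess for every one of the 238. In lol females all 238 were higher in heads, where 19.1% of all 13873 transcripts were called higher (limma, adjusted p under 0.05). In lol males all 238 were higher as well, against 39.7% of all transcripts. The 3 head arrays lay above the 3 body arrays for all 238 in lol females (25% of all transcripts) and in lol males (42.3%). The median difference was 1.99 log2 in lol females, with a 25th to 75th percentile range of 1.80 to 2.20 log2, and 2.73 log2 in lol males, with a range of 2.49 to 2.94 log2. The median standard error of a single difference was 0.21 log2 in both. Over all transcripts the median difference was 0.00 log2 in lol females and 0.25 log2 in lol males. Without the 4 head arrays that stand apart, the medians of the set were 1.93 log2 in lol females and 2.74 log2 in lol males, and all 238 were still called in both.

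Over the set the difference ran from 1.32 to 2.90 log2 in lol females and from 1.76 to 3.57 log2 in lol males. FBtr0076373 had the largest smaller-of-both-sexes difference in lol. It stood at 12.41, 12.39 and 12.64 in lol female heads, against 8.98, 9.71 and 10.04 in lol female bodies. In lol males it stood at 11.85, 12.86 and 12.27 in heads, against 8.96, 9.11 and 8.97 in bodies. Heads were far above bodies in both sexes, by 2.90 ± 0.26 (SE) log2 in females (adjusted p = 5.46e-08, limma) and 3.31 ± 0.26 (SE) log2 in males (adjusted p = 4.26e-09). FBtr0085503, the next by this measure, was lower in level. It read 11.60, 11.33 and 11.07 in lol female heads, against 8.33, 8.62 and 8.75 in lol female bodies, and 10.67, 11.41 and 10.97 in lol male heads, against 8.00, 7.82 and 8.29 in lol male bodies. Its differences were 2.77 ± 0.20 (SE) log2 in females and 2.98 ± 0.20 log2 in males.

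At the other end of the set, FBtr0084313 had the smallest difference in lol females. It stood at 12.79, 12.93 and 13.20 in lol female heads, against 11.83, 11.56 and 11.59 in lol female bodies. In lol males the same transcript stood at 12.49, 11.89 and 12.23 in heads, against 9.03, 9.45 and 9.36 in bodies. The head values of the sexes differed by 0.77 log2 while the body values differed by 2.38 log2, so that the head excess was 1.32 ± 0.22 (SE) log2 in females and 2.92 ± 0.22 log2 in males. FBtr0082622 also had a small difference in lol, of 1.36 ± 0.26 (SE) log2 in females and 1.91 ± 0.26 log2 in males. Its heads read 11.55, 11.79 and 11.85 in lol females, against 10.03, 10.58 and 10.50 in lol female bodies. In lol males they read 10.63, 11.52 and 11.13, against 9.22, 9.53 and 8.81 in bodies.

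About as many of the set missed the 2 log2 mark as reached it in lol females, and most reached it in lol males. In lol females 118 of the 238 were at or above 2 log2, in lol males 232 were, and 113 were in both. Of all 13873 transcripts, 177 were at or above 2 log2 in lol females and 671 in lol males. Applied to the lol groups instead, the same rule took 134 transcripts. The 113 in common are 47.5% of the set chosen on w1118 and 84.3% of the set chosen on lol. Each set had a median above 2 log2 in the strain that did not choose it, except for the w1118 set in lol females: the 134 chosen on lol had medians of 2.28 log2 in w1118 females and 2.61 log2 in w1118 males. Across the 238 transcripts, which are not independent and share the arrays of a group, the lol female and lol male differences correlated weakly (r = 0.33, as a description). The difference was slightly smaller for transcripts of higher head level (r = -0.19 in lol females and -0.26 in lol males).

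The set lay at the upper end of head enrichment on the array, and body enrichment reached further. Over all 13873 transcripts the largest excess of heads over bodies was 2.98 log2 in lol females and 3.57 log2 in lol males, the second being a transcript of the set. The largest excess of bodies over heads was 7.06 log2 in lol females and 6.40 log2 in lol males. An excess of heads of at least 3 log2 was found for 0 transcripts in lol females and 53 in lol males, of which 47 were in the set. An excess of bodies of at least 3 log2 was found for 330 transcripts in lol females and 1326 in lol males. A whole body includes its head, and the share of head RNA in a body was not measured here.

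**Figure D2:**
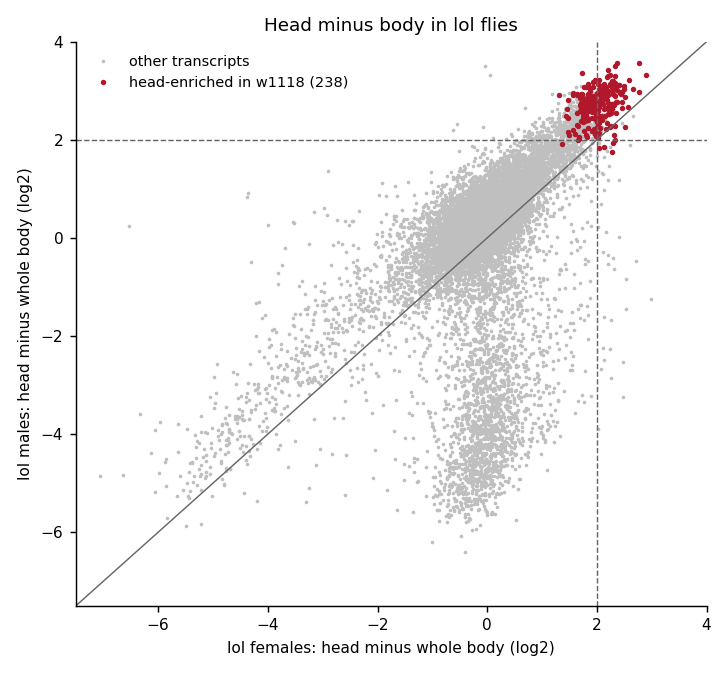
Head minus whole body in lol females (x axis, log2) and in lol males (y axis, log2) for the 13873 measured transcripts, with the 238 chosen on w1118 in red. Dashed lines mark 2 log2 and the solid line marks equal differences. The red points lie between 1.32 and 2.90 on the x axis and between 1.76 and 3.57 on the y axis, most of them above the line of equality.

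The sexes differed in bodies and not detectably in heads. In lol heads 0 of the 238 were called different between females and males (limma). An unadjusted p under 0.05 was found for 9 of them and for 399 of all 13873 transcripts. Of all transcripts 0.0865% were called. The median difference of the set was 0.02 log2, and single transcripts ran from -0.73 to 1.58 log2. In lol whole bodies 184 of the 238 were higher in females, 0 were lower and 54 were not called, where 43.4% of all transcripts were called higher in females and 16.1% lower. The 3 female arrays lay above the 3 male arrays for 185 of the 238 (51.1% of all transcripts). The median of the set was 0.78 log2 higher in lol female than in lol male bodies, against 0.38 log2 over all transcripts. In w1118, whose arrays chose the set, the corresponding medians for the set were 0.11 log2 in heads and 0.42 log2 in bodies, given as a description.

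The head excess was smaller in lol females than in lol males. In w1118, whose arrays chose the set, the medians of 2.22 log2 in females and 2.56 log2 in males went the same way, as a description. The interaction of tissue and sex, fitted to all 24 arrays, was called in 116 of the 238 transcripts, each with a smaller head excess in females. Among all transcripts 24.1% were called in this direction and 14.3% in the other. The median was -0.72 log2 for the set and -0.34 log2 for all transcripts, and 230 of the 238 had a negative value. Without the 4 head arrays 115 were called with a median of -0.84 log2. Of the 255 transcripts that had passed the rule in w1118 males only, 126 were called with a smaller head excess in lol females, with a median of -0.76 log2, and 192 were higher in lol female than in lol male bodies. Their head excess in lol had a median of 1.62 log2 in females (246 called higher) and 2.35 log2 in males (255 called higher). The difference between these 255 and the 238 was not tested.

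FBtr0084313 and FBtr0075614 had the largest sex differences in lol bodies by the rule for named transcripts, and also the most negative interactions. The body levels of FBtr0084313, given above, did not overlap between the sexes, and differed by 2.38 ± 0.22 (SE) log2 (adjusted p = 6.46e-08, limma). Its interaction was -1.61 ± 0.32 log2 (adjusted p = 0.000662). FBtr0075614 stood at 10.61, 9.93 and 10.09 in lol female bodies, against 8.47, 8.75 and 8.70 in lol male bodies, a difference of 1.57 ± 0.30 (SE) log2 (adjusted p = 0.000215). In lol heads it stood at 12.37, 11.82 and 11.63 in females, against 12.27, 11.57 and 12.14 in males. The heads thus overlapped between the sexes and the bodies did not, and the interaction was -1.62 ± 0.42 log2 (adjusted p = 0.00591).

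Differences between lol and w1118 were few in heads. Since w1118 arrays also chose the set, part of any lower value in lol heads or higher value in lol bodies is built into the choice. In female heads 7 of the 238 were higher in lol, 2 were lower and 229 were not called, where 1.9% of all transcripts were higher and 1.72% lower (limma, adjusted p under 0.05). The median of the set was 0.01 log2, and -0.01 log2 with each array centred on its median. In male heads 7 were higher, 3 lower and 228 not called, where 2.37% of all transcripts were higher and 2.31% lower. The median was 0.10 log2, and 159 of the 238 were above 0. The arrays that stand apart fall unevenly here, on w1118 male head replicates 1 and 2 and on lol male head replicate 1. The part of this imbalance in the median was not tested. The shares of the set were 2.94% higher and 0.84% lower in female heads and 2.94% higher and 1.26% lower in male heads, which is near the share of all transcripts. Of the transcripts higher in lol, 6 were called in heads of both sexes, without the share of all transcripts beside it. The count of 9 in female heads fell to 5 without w1118 female head replicate 2 or without lol female head replicate 1, and to 6 (5 higher and 1 lower) without the 4 head arrays. The count of 10 in male heads was 5 without lol male head replicate 3, 1 with the 6 compared arrays alone, and 3 without the 4 head arrays (1 higher and 2 lower), where w1118 male heads rest on 1 array with the spread taken from the remaining groups.

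In whole bodies, more of the set was called than in heads, and so was more of all transcripts. Calls in the set were mostly higher in lol in females and went in both directions in males. The choice on w1118 favours higher lol bodies, so part of the female rise is built in. The difference between the tissues was not tested. In female bodies 29 of the 238 were higher in lol, 1 was lower and 208 were not called, where 2.57% of all transcripts were higher and 2.3% lower. The median was 0.25 log2 for the set and 0.01 log2 for all transcripts, and the 3 lol arrays lay above the 3 w1118 arrays for 89 of the 238 (13.8% of all transcripts). The 255 transcripts that had passed the rule in w1118 males only were shifted too. Among them 18 were higher and 4 lower in lol female bodies, with a median of 0.19 log2, and 75 had all 3 lol arrays above. Of the 29, all had a higher mean in lol female heads too, and 7 of them were called there. In male bodies 14 were higher in lol, 10 were lower and 214 were not called, with a median of -0.08 log2. Of all transcripts 2.89% were higher and 5.76% lower there. The shares of the set were 12.2% higher and 0.42% lower in female bodies. In male bodies they were 5.88% higher and 4.20% lower, the latter below the share of all transcripts. The 134 transcripts chosen by the same rule on lol, for which the choice favours lower lol bodies, had a median of 0.17 log2 in female bodies (10 higher and 2 lower) and -0.05 log2 in male bodies (8 higher and 6 lower). The female count of 30 was 12 without w1118 female body replicate 1, 18 without w1118 replicate 3, 14 without lol replicate 3 and 18 with the 6 compared arrays alone. The male count of 24 was 14 without w1118 male body replicate 1, 14 without w1118 replicate 2 and 15 without lol replicate 2. Falls outnumbered rises without w1118 male body replicate 3 (16 higher and 19 lower) or lol replicate 3 (9 higher and 11 lower).

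An interaction term tested whether the genotype difference depended on sex. In bodies 0 of the 238 passed (limma), where 0.252% of all transcripts did, and 58 had an unadjusted p under 0.05 (24.4%, against 11.8% of all transcripts). The median was 0.37 log2 more positive in females, and 195 of the 238 were above 0, against a median of 0.06 log2 over all transcripts. This contrast contains the w1118 body arrays that chose the set, and w1118 females set the limit for most of it, so part of the shift is built in. The 134 transcripts chosen on lol had a median of 0.22 log2, with 92 above 0 and 0 called (limma), and 21 had an unadjusted p under 0.05. Without w1118 female body replicate 2, 2 of the set were called, and without w1118 male body replicate 3, 4 were. In heads 0 of the 238 passed (limma), as did 0 of all transcripts, and 0 of the 238 had an unadjusted p under 0.05.

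**Figure D3:**
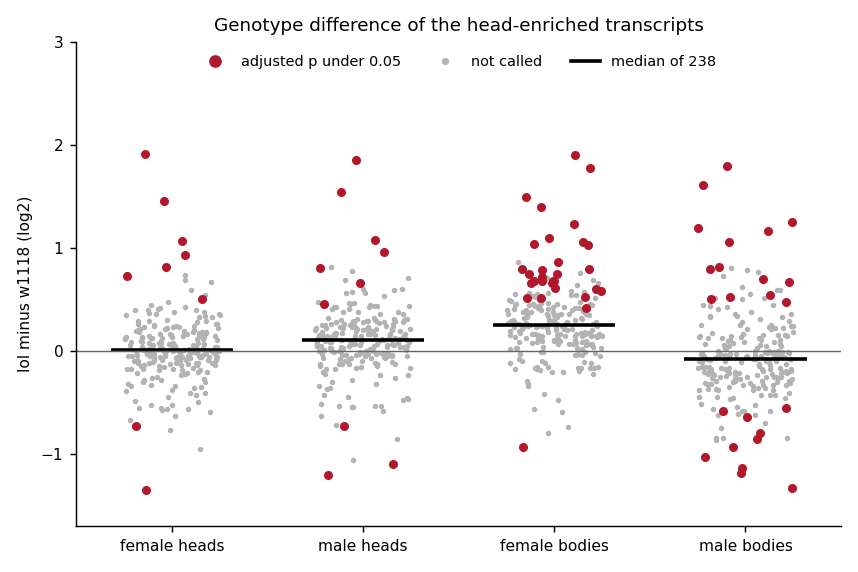
Difference between lol and w1118 (log2) for the 238 head-enriched transcripts in female heads, male heads, female bodies and male bodies. Red points were called at an adjusted p under 0.05 (limma), grey points were not, and the black line is the median of the 238, at 0.01, 0.10, 0.25 and -0.08 log2. Horizontal scatter within a column carries no meaning.

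A small group of transcripts was called higher in lol in each sex and tissue. At least 1 of the 4 genotype comparisons called 46 of the 238, where 13.7% of all transcripts were called in at least 1. Of the 46, 33 were higher only, 13 were lower only and 0 went both ways. A single comparison called 34 of them (9.07% of all transcripts), and 6 were called in all 4, each time higher in lol (0.634% of all transcripts). The count of 6, recomputed under alternatives after the data were seen, was 1 with the compared arrays alone in each fit, 1 without the 4 head arrays, and 4 to 6 without any one array. FBtr0075371 was the most raised in every comparison. It stood at 13.91, 13.39 and 14.25 in lol female heads, against 12.22, 11.82 and 11.77 in w1118 female heads. In female bodies it stood at 12.14, 11.79 and 11.55 in lol, against 10.42, 10.04 and 9.31 in w1118. In males it stood at 13.50, 13.29 and 13.37 in lol heads, against 12.05, 10.91 and 11.65 in w1118 heads. Male bodies had 11.52, 10.97 and 10.55 in lol, against 9.46, 9.40 and 8.79 in w1118.

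Every lol array of FBtr0075371 was thus above every w1118 array of the same sex and tissue, and lol bodies overlapped the range of w1118 heads in either sex. The differences were 1.91, 1.85, 1.90 and 1.79 ± 0.32 (SE) log2 in female heads, male heads, female bodies and male bodies, or 3.46-fold to 3.76-fold. The largest of their adjusted p-values was 0.00141 (limma). In male heads this call was lost with the 6 compared arrays alone (adjusted p = 0.0982) and without the 4 head arrays (adjusted p = 0.0989). The head excess itself was kept in lol, at 2.02 ± 0.32 log2 in females and 2.38 ± 0.32 log2 in males.

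FBtr0078592 behaved in the same way with a smaller spread. It stood at 13.01, 13.28 and 13.16 in lol female heads, against 11.64, 11.76 and 11.69 in w1118 female heads. In male heads it stood at 13.83, 14.05 and 13.76 in lol, against 12.11, 12.37 and 12.52 in w1118. Its bodies read 11.18, 11.31 and 11.40 in lol females, against 9.50, 9.43 and 9.66 in w1118 females, and 10.96, 11.26 and 11.25 in lol males, against 9.21, 10.08 and 9.35 in w1118 males. No group of lol overlapped its w1118 counterpart. The differences were 1.45, 1.54, 1.77 and 1.61 ± 0.17 (SE) log2 in the same order as before, with a largest adjusted p of 3.2e-05 (limma). The other 4 transcripts that were higher in all comparisons rose by 0.73 to 1.07 log2 in female heads, 0.66 to 1.08 in male heads, 1.02 to 1.39 in female bodies and 0.47 to 1.17 in male bodies.

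Transcripts called lower were fewer, and 0 of the 238 were called lower in all 4 comparisons. The share of all transcripts called lower in all 4 is not given here, so this count is only a description. For FBtr0082622, FBtr0080130 and FBtr0086005, all 3 lol arrays still lay below the 3 w1118 arrays in each sex and tissue. In heads, part of this is built into the choice. FBtr0082622 had the largest fall in female heads, to 11.55, 11.79 and 11.85 in lol, against 13.16, 13.12 and 12.97 in w1118. In male heads it stood at 10.63, 11.52 and 11.13 in lol, against 12.21, 11.71 and 12.66 in w1118, again without overlap. It fell by 1.35 log2 in female heads (adjusted p = 0.00372, limma) and by 1.10 log2 in male heads (adjusted p = 0.0155). Leaving out any one of 4 male head arrays (w1118 replicate 1 or 3, lol replicate 1 or 3) ended the male call, with an adjusted p between 0.0504 and 0.0551, as did the 6 compared arrays alone (0.343). In bodies it was not called, at -0.59 log2 in females (adjusted p = 0.25) and -0.75 log2 in males (adjusted p = 0.0806), although the arrays did not overlap there either. Without the 4 head arrays its calls in heads of both sexes were kept. The tissue dependence of these differences was not tested, since it contains the contrast that chose the set.

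FBtr0080130 stood at 12.26, 12.27 and 13.00 in lol female heads, against 13.14, 13.28 and 13.29 in w1118. It was lower in lol by 0.73 log2 in heads of either sex (adjusted p = 0.0403 in females and 0.0346 in males, limma). The female call was lost without any one female head array except lol replicate 3 (adjusted p between 0.0765 and 0.202), with the replicate number as a block (0.0536), with the 6 compared arrays alone (0.23) and without the 4 head arrays (0.207). The call in male heads was lost without any one male head array except lol replicate 1 (adjusted p between 0.0507 and 0.133) and with the 6 compared arrays alone (0.135). Without the 4 head arrays, where w1118 male heads rest on 1 array, the difference was -0.94 log2. In male bodies FBtr0080130 was also called lower, at -0.64 log2 (adjusted p = 0.0456, limma). In female bodies it was not called, at -0.42 log2 (adjusted p = 0.287). It was the only transcript of the set called lower in 3 comparisons, a count without the share of all transcripts beside it. FBtr0086005, of low level, stood at 9.18, 9.67 and 9.65 in lol male heads, against 10.65, 10.20 and 11.30 in w1118, and fell by 1.21 log2 (adjusted p = 0.0104). With the arrays quantile normalized again its adjusted p was 0.0726, and with the 6 compared arrays alone it was 0.254. In female heads it did not pass, at -0.95 log2 (adjusted p = 0.0578).

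In bodies, FBtr0076373 was the only transcript of the set called lower in lol females. It stood at 8.98, 9.71 and 10.04 in lol, against 10.50, 10.75 and 10.28 in w1118, and fell by 0.93 log2 (adjusted p = 0.0423, limma). This call was lost without any one female body array except lol replicate 3 (adjusted p between 0.0622 and 0.249), with the 6 compared arrays alone (0.137) and with quantile normalization again (0.0522). In male bodies, FBtr0087631 stood at 9.00, 9.67 and 9.57 in lol, against 10.74, 11.10 and 10.40 in w1118, and fell by 1.33 log2 (adjusted p = 0.00192). FBtr0089368 stood at 10.58, 10.72 and 11.22 in lol male bodies, against 12.18, 12.36 and 11.54 in w1118, and fell by 1.19 log2 (adjusted p = 0.00109). Neither was called in female bodies, where FBtr0087631 was at -0.56 log2 (adjusted p = 0.26) and FBtr0089368 at -0.12 log2 (adjusted p = 0.907). The sex dependence did not pass for either of them (interaction adjusted p = 0.402 and 0.143).

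**Figure D4:**
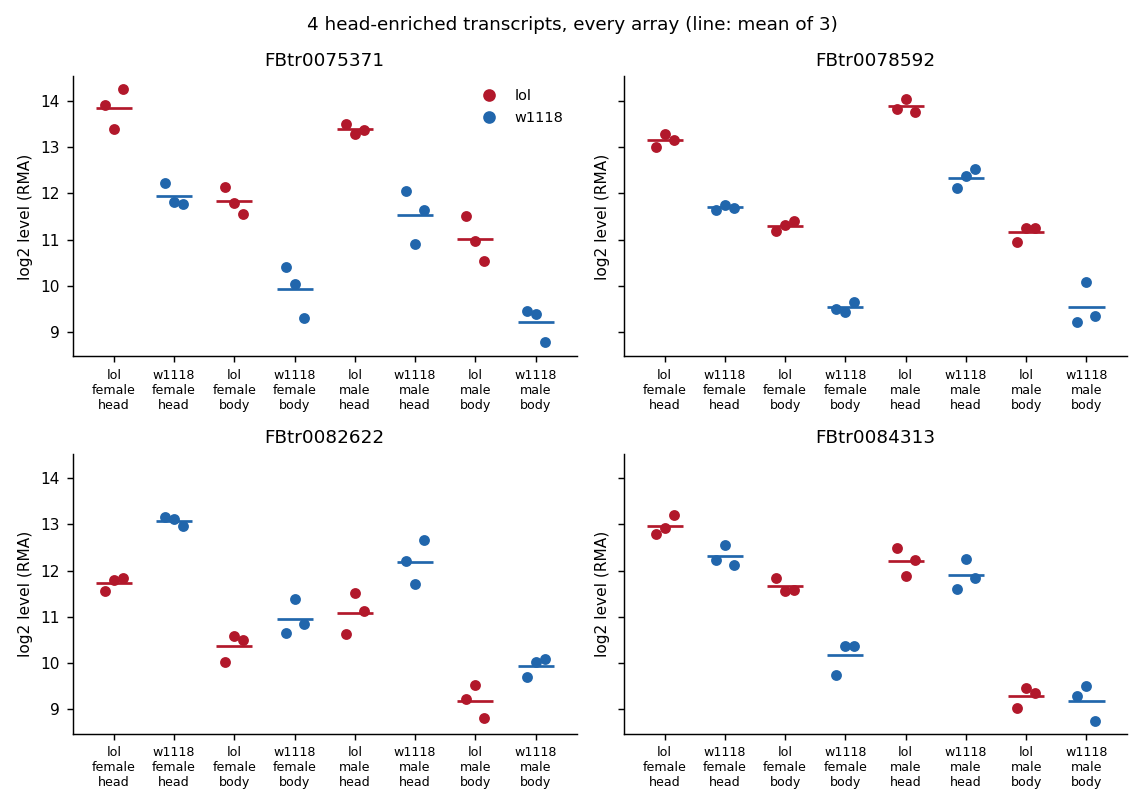
Log2 level on every array (points, lol red and w1118 blue) with the mean of 3 (lines) for 4 head-enriched transcripts. FBtr0075371 and FBtr0078592 are higher in lol than in w1118 in all 4 pairs of groups. FBtr0082622 is lower in lol in all 4 pairs and was called in heads only. FBtr0084313 is higher in lol female bodies (11.56 to 11.83) than in w1118 female bodies (9.75 to 10.38).

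FBtr0084313 was raised in lol female bodies as well, at 11.83, 11.56 and 11.59, against 9.75, 10.38 and 10.37 in w1118 female bodies. The difference of 1.49 ± 0.22 (SE) log2 was called (adjusted p = 0.000362, limma), and the 0.10 log2 in male bodies was not (adjusted p = 0.859). The interaction of genotype and sex was 1.39 ± 0.32 log2 and missed the threshold (adjusted p = 0.0735). In female heads lol stood at 12.79, 12.93 and 13.20, against 12.24, 12.56 and 12.13 in w1118, a difference of 0.67 log2 that was not called (adjusted p = 0.138).

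The spread between replicates was not the same in all groups. The median SD of the 238 over 3 arrays was 0.28 log2 in lol female heads and 0.15 log2 in w1118 female heads, and 0.24 log2 in lol male heads and 0.20 log2 in w1118 male heads. In bodies it was 0.18 log2 in lol females and 0.17 log2 in w1118 females, and 0.26 log2 in lol males and 0.27 log2 in w1118 males. Over all transcripts the median SD in these groups lay between 0.16 and 0.25 log2. The members are not independent of each other. A total of 34 of the 238 have a neighbour in the set whose ID number differs by 1, in 18 such pairs. The levels of a pair differed by 0.49 log2 on median over the arrays, between 0.10 and 2.44 log2, and 0 members had identical values. The IDs do not say whether such pairs belong to 1 gene or share probes.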

How the data were processed

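The deposited values are log2 levels, 1 per transcript and array, that the authors made with RMA per the submitters' processing notes (no version, and no list of arrays processed jointly, is given in the sources used here). The log base was taken as 2 from the range of 6.6134 to 15.9201. Array medians were 12.10 to 12.25. The 25th percentile of an array ran from 9.52 to 10.32. It was 10.22 to 10.32 on male body arrays and 9.79 to 9.89 on female body arrays. Of 15595 transcripts, 1722 were blank throughout and were dropped. Precision is limited by the number of arrays.

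From these values, 1 limma model (version 3.58.1, R 4.3.3), with 8 group means, was fitted to all 24 arrays (lmFit, contrasts, eBayes). Benjamini-Hochberg adjustment ran over all 13873 transcripts of a comparison, those under 0.05 were called, and members were then counted. The fit was tested on simulated data with planted differences, for lol female heads against bodies only. The simulated noise was independent between arrays and transcripts, with 1 SD per transcript. It therefore does not cover arrays that deviate together, unequal spread of groups or the other comparisons. Errors are SEs from the model or SDs over 3 arrays. The members, lists and tests were chosen with earlier results of these data known. By rule, named transcripts were the 2 highest and 2 lowest called ones of a comparison without overlap of the arrays compared (for interactions, called ones), and in lol the 2 largest and 2 smallest head excesses. Marker lists needed 5 matched transcripts, none could be matched, and no list was used. Alternatives tried were the replicate number as a block, a robust prior with an intensity trend, dropping the lowest 25% by mean, median centring, repeated quantile normalization, only the groups compared, leaving out the 4 head arrays or any single array, and the rule applied to lol. That last alternative for the comparisons of lol with w1118, and the genotype by sex interactions, were chosen after seeing the data. Only in male bodies of lol and w1118 did every pair of same-numbered arrays deviate together (r = 0.23, 0.29 and 0.34 across transcripts). There the block gave 25 calls against 24 without it.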

Additional observations from a re-analysis of the deposited data

Results flagged for a closer look

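A test of the difference between the sexes marked the head excess in lol. It was smaller in lol females than in lol males for 116 of the 238 transcripts, at -1.62 log2 for FBtr0075614 and -1.61 log2 for FBtr0084313. Part of this is shared by the array as a whole, since 24.1% of all transcripts were called in the same direction and the median over all transcripts was -0.34 log2. Of the 255 transcripts that passed the rule in w1118 males only, 126 were called in this direction, with a median of -0.76 log2. The medians of the set in w1118, 2.22 log2 in females and 2.56 log2 in males, also went this way. Groups of 3 arrays are too small for the check on single outlying arrays, which was not made.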

How the results depend on the processing

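The 238 calls in lol heads against bodies were kept in each sex under each alternative run, except that dropping the lowest 25% by mean left 222 of the set to test, all called. Leaving out any array kept 238 in both sexes. The number of members was 647 at 1.5 log2, 28 at 2.5 log2 and 134 when the rule was applied to lol. It was 218 to 283 without any one w1118 array and 241 without w1118 male heads 1 and 2, of which 235 were among the 238. Leaving out single arrays gave 5 to 8 calls in female heads (main count 9), 5 to 10 in male heads (10), 12 to 21 in female bodies (30), 14 to 35 in male bodies (24), 163 to 180 for sex in lol bodies (184), 78 to 122 for the tissue by sex interaction (116), 0 for sex in lol heads and for the genotype by sex interaction in heads, and 0 to 4 for that in bodies. In male bodies the balance of calls reversed at 35 (16 higher, 19 lower) without w1118 replicate 3 and at 20 (9 higher, 11 lower) without lol replicate 3. With the compared groups alone, male heads had 1 call and female bodies 18. Without the 4 head arrays, male heads had 3 calls with the balance reversed. The transcripts chosen on lol had 12 calls in female bodies and 14 in male bodies. The genotype by sex interaction in bodies had 1 call with quantile normalization again and 1 without the 4 head arrays. The cause was not tested in these cases. Quantile normalization again moved the median sex difference of the set in lol bodies to 1.07 log2 (0.39 over all transcripts) and the tissue by sex interaction to 163 calls. Of 360 single-transcript values under alternatives, 336 kept their call, 24 lost it and 0 reversed. These cover each transcript in the comparisons that named it by the rule. The losses of FBtr0080130 in male heads, given above, come in addition. The replicate block gave 13 calls in female heads, 13 in male heads, 33 in female bodies, 190 for sex in lol bodies and 124 for the tissue by sex interaction, and it left all 238 head against body calls. Same-numbered arrays deviated together (r over 0.1) in 15 of 24 pairs, with r between -0.59 and 0.67. Outside male bodies of lol and w1118 the pairs of a comparison did not all pass 0.1. Whether those arrays were paired could not be told. Signal over background could not be checked, since the values are already summarised per transcript.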
